A study of Mus musculus with 6 samples.

Results

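The genes described here are 10 markers of epithelial identity: Epcam, the keratin genes Krt8, Krt18 and Krt19, the transcription factor gene Grhl2, the splicing regulator genes Esrp1 and Esrp2, the protease gene St14, the protease inhibitor gene Spint1 and the trafficking gene Rab25. They were chosen by symbol from the 55401 genes of the count table, and all 10 were among the 17325 genes with enough reads to be tested. RNA was sequenced from V6.5 mouse embryonic stem cells, a line of hybrid mouse background, in 3 wild-type (WT) libraries and 3 libraries of V6.5 cells labelled Cdh1-/-, that is, without a working E-cadherin gene. The labels name no treatment and no time point, and do not say whether the libraries of a genotype came from separate cultures or whether the knockout is a single clone. The p-values therefore measure only the spread between these libraries.

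Epithelial cells are joined into sheets by E-cadherin junctions. They also share keratin filaments, a splicing programme set by the Esrp proteins, surface serine proteases kept in check by Kunitz-type inhibitors, and transcription factors of the Grainyhead family, which activate many of these genes, the E-cadherin gene among them. Mouse embryonic stem cells grow in compact colonies, and express E-cadherin and the surface protein Epcam. The question here was whether other parts of this epithelial programme differed in cells that lack E-cadherin.

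Library totals lay between 18020719 and 23381942 counts. Levels are CPM, counts scaled to a common library size with TMM factors, and folds are on the log2 scale, knockout over WT. The targeted gene Cdh1 stood at 559 ± 19.1 CPM in WT and at 173 ± 9.05 CPM in the knockout (SD, n = 3 each). It was lower in all 3 knockout libraries, and reads of the locus remained. All 8 pluripotency markers listed, such as Pou5f1, Sox2 and Nanog, were tested and together held 4736 to 5143 CPM in WT and 5233 to 6386 CPM in the knockout. In the edgeR fit described below 1 was higher, Tdgf1, from 1302 ± 32.1 to 2014 ± 191 CPM (adjusted p 0.000175), and 0 were lower. Knockout replicate A stood apart from replicates B and C for Esrp1, Rab25, Epcam and Cldn7, whose values are given with and without it. It also stood apart for genes beyond these, such as Nanog, at 376 CPM against 581 and 620 CPM. Without this library 2784 genes were called in all, against 2307 with all 6 libraries. None of the 10 genes lies on chromosome 1 or 14, whose median log2 fold changes of -0.33 and 0.53 departed from the -0.01 of all genes.

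Of the 10 genes, 4 differed between genotypes at an adjusted p under 0.05 (edgeR quasi-likelihood fit, Benjamini-Hochberg over all tested genes). St14, Spint1 and Krt19 rose and Grhl2 fell. Over all tested genes 13.3% passed, 7.60% higher and 5.71% lower in the knockout. The 10 genes and the related lists below were chosen with earlier results of these data known. Their shares beside that of all genes are therefore descriptions only. The other 6 genes, Epcam, Krt8, Krt18, Esrp1, Esrp2 and Rab25, did not pass. The median log2 fold change of the 10 genes was -0.03, so there was no common direction, with 5 fitted values above 0 and 5 below. Groups did not overlap for 5 genes, St14, Spint1, Krt19, Grhl2 and Krt18, against 30.7% of all tested genes. In RNA from bulk cultures, fewer cells that express a gene and less RNA per cell cannot be told apart.

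**Figure D1:**
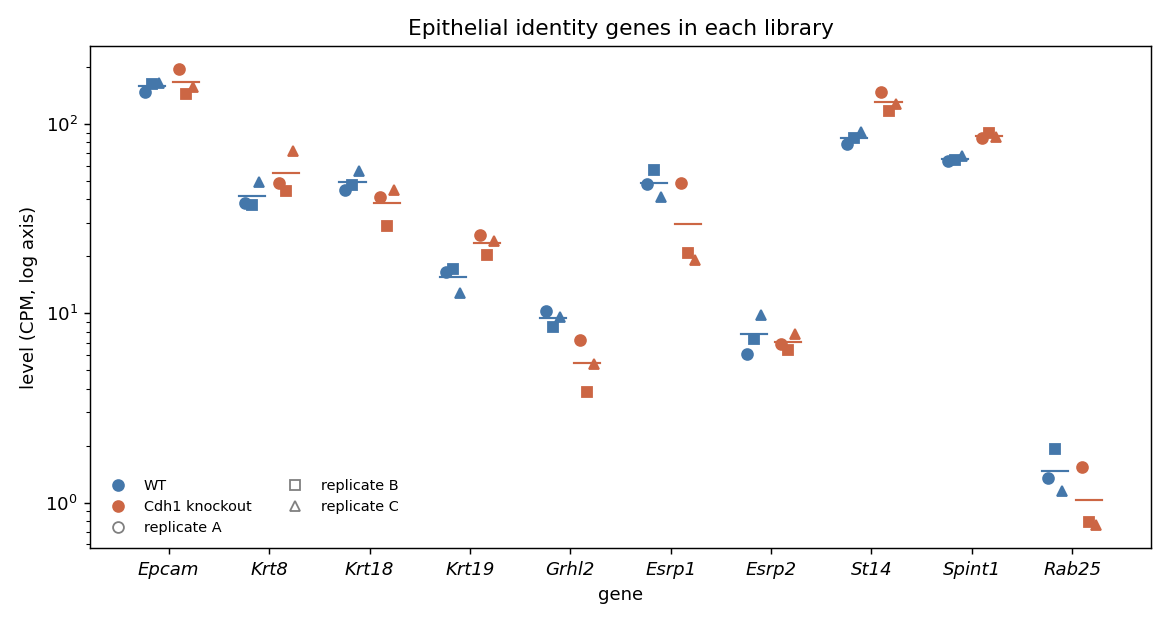
Level of each gene in each library, in CPM on a log axis. Points are libraries (circle, square and triangle for replicates A, B and C), lines are group means. St14, Spint1 and Krt19 are higher in all 3 knockout libraries, Grhl2 is lower in all 3, and Esrp1 in knockout replicate A sits at the WT level.

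Per kilobase of exon, which allows genes to be compared with each other, Epcam had the highest level in WT at 76.8 ± 4.20 CPM per kb, followed by Krt18 at 34.6 ± 4.35 CPM per kb. Spint1, St14 and Krt8 came next, at 26.1, 26.0 and 21.3 CPM per kb, and neighbours in that order overlapped between libraries. Esrp1 at 12.3 CPM per kb and Krt19 at 9.82 CPM per kb also overlapped. Esrp2, Grhl2 and Rab25 closed the order at 2.19, 1.76 and 1.36 CPM per kb, again without a gap between neighbours. In the knockout Epcam stayed first, at 80.5 ± 12.9 CPM per kb. St14, Spint1, Krt8 and Krt18 then followed at 40.2, 34.5, 28.1 and 26.7 CPM per kb, with overlap from each to the next, and Krt19 at 14.9 CPM per kb stood above Esrp1 at 7.44 CPM per kb. Compared with all tested genes, the WT level of Epcam exceeded that of 95.6% of genes, and the level of Rab25 that of 26.7%.

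Epcam (ENSMUSG00000045394.9, GRCm38 chromosome 17, 87635979 to 87651129, plus strand) encodes a surface glycoprotein of epithelial and embryonic stem cells. In the order of replicates A, B and C, which is kept below, it was counted at 148, 163 and 164 CPM in WT and at 196, 145 and 157 CPM in the knockout. Knockout replicate A lay above every WT library, and the groups overlapped. Its fitted log2 change was 0.07 ± 0.11 (SE, adjusted p 0.750), and it moved between -0.068 and 0.17 when single libraries were left out, its sign turning without knockout replicate A. Of 10 genes whose products associate with Epcam or cut it, 1 was higher and 1 lower, a share of 20% beside the 13.3% of all genes. The median log2 fold change of this list was -0.23. Cd9, a tetraspanin of the Epcam complex, rose from 118 ± 23.3 to 228 ± 26.7 CPM (log2 fold change 0.95, adjusted p 0.000155). Fhl2, which encodes a cofactor that binds the cleaved tail of Epcam, fell from 1.67 ± 0.197 to 0.446 ± 0.284 CPM (adjusted p 0.0171), but it passed in only 1 of the 6 fits that each left out a library, with adjusted p up to 0.0907, and it lies on chromosome 1. Without any 1 library other than knockout replicate A the list had 1 call, Cd9, and without knockout replicate A it had 4. Cldn7, a claudin partner of Epcam, had 23.8 ± 3.09 CPM in WT against 18.8 ± 7.35 CPM in the knockout (adjusted p 0.325). Knockout replicate A had 27.2 CPM and replicates B and C had 13.8 and 15.4 CPM. Without replicate A, Cldn7 was among the 4 calls, lower with a log2 fold change of -0.70 (adjusted p 0.0024).

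The keratins are described next, beginning with Krt8 and Krt18, which encode the type II and type I partners of the filaments of simple epithelia. The pair lies on chromosome 15. Krt8 (ENSMUSG00000049382.10, 101996698 to 102004482, minus strand) and Krt18 (ENSMUSG00000023043.7, 102028180 to 102032027, plus strand) point away from each other, with 23698 bases between their starts. Promoter windows of RefSeq (build GRCm38.p6, from 250 bases before to 50 bases after the start) were found for 5 of the 10 genes, and not for Krt19, Esrp1, Esrp2, Grhl2 and St14. Those of Krt8, Krt18, Epcam and Rab25 are shown because each holds a match to a searched motif. The motifs were the E-box CACCTG, the class that Zeb and Snail repressors bind, and AACNNGTT, the Grainyhead motif, each on both strands. Capitals mark the matches. Krt8 is read from chr15:102004293-102004592 on the minus strand, Krt18 from chr15:102027966-102028265 on the plus strand, Epcam from chr17:87635729-87636028 on the plus strand and Rab25 from chr3:88548230-88548529 on the minus strand.
Krt8: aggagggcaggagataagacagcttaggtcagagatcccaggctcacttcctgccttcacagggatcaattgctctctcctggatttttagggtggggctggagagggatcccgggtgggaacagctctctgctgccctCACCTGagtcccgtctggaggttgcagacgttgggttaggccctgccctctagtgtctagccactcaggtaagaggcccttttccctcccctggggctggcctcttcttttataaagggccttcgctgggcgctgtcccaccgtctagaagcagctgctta
Krt18: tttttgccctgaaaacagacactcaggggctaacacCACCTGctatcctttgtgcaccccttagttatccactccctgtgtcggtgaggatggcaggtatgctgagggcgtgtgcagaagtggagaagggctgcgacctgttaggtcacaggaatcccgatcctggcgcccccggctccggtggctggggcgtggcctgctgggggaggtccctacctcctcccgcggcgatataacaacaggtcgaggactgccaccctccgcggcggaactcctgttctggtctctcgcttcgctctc
Epcam: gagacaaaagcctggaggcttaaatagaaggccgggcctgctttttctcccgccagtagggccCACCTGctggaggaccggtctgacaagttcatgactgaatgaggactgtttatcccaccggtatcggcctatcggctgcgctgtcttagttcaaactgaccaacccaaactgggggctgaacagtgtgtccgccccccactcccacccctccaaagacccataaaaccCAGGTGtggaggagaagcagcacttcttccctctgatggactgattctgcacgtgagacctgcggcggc
Rab25: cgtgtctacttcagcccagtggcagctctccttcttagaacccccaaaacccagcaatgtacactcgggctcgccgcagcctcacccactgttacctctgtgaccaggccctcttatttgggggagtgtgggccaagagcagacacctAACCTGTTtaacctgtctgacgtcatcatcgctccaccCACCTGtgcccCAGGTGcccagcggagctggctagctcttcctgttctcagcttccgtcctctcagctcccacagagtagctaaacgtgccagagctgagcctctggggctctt
Krt8 and Krt18 each held 1 E-box, Epcam and Rab25 each held 2, and Rab25 also held the only Grainyhead match. The window of Spint1 held neither motif. Of 32851 RefSeq windows of this length, 20.2% held the E-box and 4.20% the Grainyhead motif. A match describes the letters and does not show binding. Among the 10 genes, exons of Krt8, Grhl2 and Esrp2 are partly covered by opposite-strand genes, over 5.16%, 2.32% and 6.19% of their bases.

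Krt8 was counted at 38.4, 37.5 and 49.5 CPM in WT and at 49.1, 44.1 and 71.7 CPM in the knockout. The values overlapped, since WT replicate C lay above knockout replicates A and B, and the test was not passed (log2 fold change 0.39, SE 0.16, adjusted p 0.133). Without knockout replicate C, the highest library, the Krt8 value was 0.16 (adjusted p 0.563). Krt18 was counted at 44.9, 47.4 and 56.8 CPM in WT and at 41.2, 29.0 and 44.9 CPM in the knockout. Its highest knockout library reached just under its lowest WT library, and its fitted log2 change of -0.37 (SE 0.15, adjusted p 0.118) did not pass either. Without knockout replicate B, the lowest library, the Krt18 value was -0.19 (adjusted p 0.424). Over the 6 fits that each left out a library, Krt8 ranged from 0.16 to 0.54 and Krt18 from -0.50 to -0.19, and neither passed the test in any of them. Within each library the ratio of Krt18 to Krt8, in counts per kb of exon, was 1.60, 1.72 and 1.56 in WT and 1.14, 0.896 and 0.853 in the knockout. All 3 knockout libraries lay below all 3 WT libraries, and the mean log2 ratio was lower by 0.76, a fold of 0.589. The exact two-sided permutation test gave p = 0.10, the smallest value that 3 libraries against 3 allow, and 0.30 when adjusted over the 3 ratios computed here. This test cannot reach 0.05 with so few libraries. Scaling between libraries does not enter this ratio, because both genes are read from the same library. Reads of Krt8 and Krt18 may also match processed pseudogenes, and how such reads were counted is not given in the sources used here.

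Krt19 (ENSMUSG00000020911.14, chromosome 11, 100140810 to 100146120, minus strand), a type I keratin of simple and stem cell epithelia, rose. Its counts were 16.6, 17.1 and 12.8 CPM in WT and 26.1, 20.4 and 24.0 CPM in the knockout, with no overlap. Its fitted log2 change was 0.60 ± 0.15 (SE, adjusted p 0.0142), a fold of 1.52. Leaving out WT replicate C, the lowest library, ended the call (log2 fold change 0.49, adjusted p 0.0645). Of all 53 protein-coding keratin genes, 33 had at most 6 counts in every library and 14 were tested. Among the tested keratins Krt19 alone rose, and Krt10 and Krt20 fell, a share of 21.4% beside the 13.3% of all genes. Krt10, a keratin of suprabasal epidermis, went from 5.55 ± 1.10 to 2.88 ± 0.486 CPM (adjusted p 0.0245), and it failed the test in 4 of the 6 fits without a library, with adjusted p up to 0.139. Krt20, a keratin of intestinal epithelium, was near the floor of 6 counts, at 1.15 ± 0.300 CPM in WT against 0.314 ± 0.233 CPM in the knockout (adjusted p 0.0457), and it failed in 5 of those fits, with adjusted p up to 0.179. Over the 14 keratins the median fold was -0.43 on the log2 scale. Krt28, Krt71, Krt75 and Krt222, all below 0, had at most 22 counts in any library, as had Krt1, which was above 0. The summed level of all 53 keratin genes was 127 to 151 CPM in WT and 125 to 170 CPM in the knockout. Without WT replicate C no keratin was called, and without WT replicate A, knockout replicate B or knockout replicate C there was 1 call, Krt19.

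A separate list held mainly genes whose products tie keratin filaments to desmosomes and to other filaments. It also held the keratin gene Krt1, counted among the keratins above as well, and Trim29 and Pnn, none of them called. Of 13 listed genes, all tested, 5 were higher and 0 lower in edgeR's test, as also in DESeq2, and 5 had an unadjusted p under 0.05. That is a share of 38.5% called, beside the 13.3% of all genes. Eppk1, which encodes the keratin linker epiplakin, rose from 19.9 ± 1.33 to 34.9 ± 0.737 CPM (log2 fold change 0.81, adjusted p 0.000223). Plec, the gene of plectin, rose from 172 ± 8.63 to 248 ± 29.1 CPM (log2 fold change 0.53, adjusted p 0.00194). Evpl (envoplakin) and Pkp3 (plakophilin) had log2 fold changes of 0.57 and 0.46, and Ppl (periplakin), outside the naming rule, one of 0.45. Of the 6 fits that each left out a library, Evpl failed the test in 3, Pkp3 in 4 and Ppl in all 6. Without WT replicate A the adjusted p was 0.122 for Evpl, 0.143 for Pkp3 and 0.173 for Ppl, and the list then had 2 calls, Eppk1 and Plec, as it had without WT replicate B. It had 3 without knockout replicate B or C, and 3 higher with 1 lower without knockout replicate A. The median log2 fold change of the list was 0.08. Eppk1 has 5.48% of its exon bases under another gene of the same strand.

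Markers of other cell types were counted beside the keratins, since Krt8, Krt18 and Krt19 are also expressed in trophectoderm and primitive endoderm. All 8 tested primitive endoderm markers of the 9 listed were higher in the knockout, and Afp was at the floor. In fits without a library 6 to 8 were called. Their summed level was 157 to 228 CPM in WT and 429 to 792 CPM in the knockout. Gata4 went from 10.7 ± 3.85 to 34.8 ± 10.9 CPM, Sox7 from 2.74 ± 0.993 to 12.4 ± 4.08 CPM and Sox17 from 1.96 ± 0.767 to 8.67 ± 2.11 CPM. Foxa2 had at most 6 counts in every WT library and failed the test in 4 of the fits without a library. Dab2 failed in 5 of those fits, with adjusted p up to 0.188, and its groups overlapped. Gata4 and Sox7 lie on chromosome 14 and Sox17 on chromosome 1. Trophectoderm markers summed to 136 to 146 CPM in WT and 87.5 to 101 CPM in the knockout, with 1 of 7 tested lower and Elf5 at the floor. The lower gene, Tfap2c, went from 96.2 to 46.2 CPM and so held most of the sum and its difference. Of the others tested, Eomes, Krt7 and Tead4 had fitted values above 0, and Cdx2, Gata3 and Hand1 had values below 0. None of these was called, and the median of the trophectoderm list was -0.25 on the log2 scale. Fibroblast markers summed to 36.1 to 50.4 CPM in WT and 41.2 to 58.0 CPM in the knockout, with Fbn1 higher and Col1a1 lower of 5 tested, and Lum and S100a4 at the floor. Fbn1 alone went from 15.2 to 36.4 CPM, the other 4 tested genes had fitted values below 0, and the list median was -0.82 on the log2 scale. Of tested primitive endoderm, trophectoderm and fibroblast markers, 100%, 14.3% and 40% were called, and of the pluripotency markers 12.5%. The share of all genes was 13.3%. The part of these cell types in the keratin results was not tested.

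**Figure D2:**
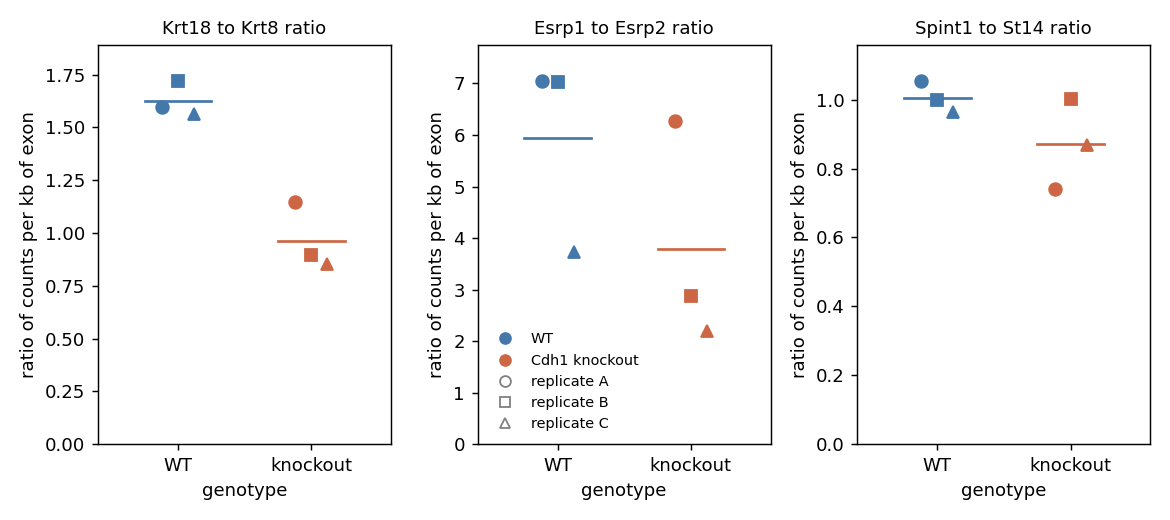
Ratio of counts per kb of exon within each library for 3 pairs of genes, by genotype. Points are libraries and lines are group means. The Krt18 to Krt8 ratio lies between 1.56 and 1.72 in WT and between 0.853 and 1.14 in the knockout, while the other ratios overlap between genotypes.

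Grhl2 (ENSMUSG00000022286.16, chromosome 15, 37233036 to 37363569, plus strand) encodes a Grainyhead factor that activates junction genes. It was the member that fell. Its levels were 10.3, 8.44 and 9.50 CPM in WT and 7.19, 3.84 and 5.40 CPM in the knockout, without overlap. Its fitted log2 change was -0.79 ± 0.23 (SE, adjusted p 0.0325), a fold of 0.578. The call held without knockout replicate A, at a log2 fold change of -1.03 (adjusted p 0.00287). It was lost in each of the other 5 fits, with adjusted p of 0.135 without WT replicate A, 0.0683 without B and 0.0876 without C, and of 0.131 and 0.0925 without knockout replicates B and C. The log2 fold change stayed between -1.03 and -0.57 in these fits.

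The other transcription factors of epithelial cells moved in both directions. Of 13 listed, 10 were tested, 2 were higher and 2 lower, a share of 40% beside the 13.3% of all genes. The paralogues of Grhl2 were not called over all libraries. Grhl1 had 12.9 ± 1.76 CPM in WT against 9.10 ± 1.001 CPM in the knockout (log2 fold change -0.51, adjusted p 0.0646). Its groups did not overlap, and it was called lower in 2 of the 6 fits, those lacking knockout replicate A or WT replicate C, with adjusted p down to 0.0376. Grhl3 had 24.9 ± 5.48 and 29.8 ± 5.67 CPM (adjusted p 0.340). Tfap2c, a factor of trophoblast and germ cells, fell from 96.2 ± 2.60 to 46.2 ± 7.66 CPM (log2 fold change -1.06, adjusted p 2.5e-05). Its paralogue Tfap2a fell from 2.79 ± 0.476 to 0.697 ± 0.0815 CPM (adjusted p 0.00187). Genes on the opposite strand cover 16.0% of its exons, and whether the counting used strand is not stated in the sources used here. The Kruppel-like factor genes Klf4 and Klf5, active in both naive stem cells and epithelia, rose with log2 fold changes of 1.12 (adjusted p 0.000398) and 0.79 (adjusted p 0.00735). Klf5 lies on chromosome 14 and lost its call without WT replicate B (adjusted p 0.0684). Ovol1 and Ovol2, repressors of mesenchymal genes, had at most 4.30 CPM in any library and were not called.

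Repressors of epithelial genes were read as the counterpart of Grhl2. Of 11 listed, 10 were tested, 2 were higher and 1 lower, a share of 30% beside the 13.3% of all genes. Zeb2, a zinc finger repressor that binds E-boxes, fell from 11.3 ± 1.62 to 2.84 ± 0.639 CPM (log2 fold change -1.98, adjusted p 4.3e-05). Zeb1 had 19.1 ± 4.10 CPM in WT against 23.1 ± 6.34 CPM in the knockout (adjusted p 0.409). Twist1, a basic helix-loop-helix factor, rose from 3.72 ± 1.70 to 9.25 ± 1.81 CPM (log2 fold change 1.32, adjusted p 0.00867). Klf8 rose from 26.7 ± 2.46 to 37.6 ± 8.70 CPM (adjusted p 0.0478), and it failed in 5 of the 6 fits without a library, with adjusted p up to 0.188. With upper quartile factors or library totals the list had 1 call in each direction.

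Esrp1 and Esrp2 encode RNA-binding proteins that promote epithelial exon choice in many transcripts. Esrp1 (ENSMUSG00000040728.15, chromosome 4, 11331933 to 11386783, minus strand) was counted at 48.1, 57.3 and 41.2 CPM in WT and at 48.6, 20.7 and 19.2 CPM in the knockout. Knockout replicates B and C lay under every WT library, while knockout replicate A lay within the WT range. Over all libraries the fitted log2 change was -0.73 ± 0.26 (SE, adjusted p 0.0832). Without knockout replicate A it was -1.29 (adjusted p 1.8e-06). Esrp1 was not called by DESeq2 (adjusted p 0.333) and was called by limma-voom (adjusted p 0.0256), and over all 16 alternative settings its adjusted p ran from 4.9e-07, without a count filter, to 0.333. Esrp2 (ENSMUSG00000084128.10, chromosome 8, 106130319 to 106136974, minus strand) was counted at 6.08, 7.27 and 9.85 CPM in WT and at 6.91, 6.42 and 7.77 CPM in the knockout, all within the WT range. Its fitted log2 change of -0.14 (SE 0.21, adjusted p 0.743) turned to 0.085 without WT replicate C. The ratio of Esrp1 to Esrp2 per kb was 7.05, 7.02 and 3.73 in WT and 6.26, 2.88 and 2.20 in the knockout. These values overlapped (exact two-sided permutation p = 0.20, adjusted 0.30). Counts per gene carry no measure of exon use.

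Of 11 other splicing regulators, all tested, 3 were higher and 1 lower, a share of 36.4% beside the 13.3% of all genes. Mbnl2, a muscleblind gene, rose from 58.0 ± 5.19 to 130 ± 25.3 CPM (log2 fold change 1.17, adjusted p 3.4e-05). It lies on chromosome 14, where the median was 0.53, and the part of its chromosome in this value was not tested. Ptbp2, a polypyrimidine tract binding protein gene, fell from 55.6 ± 7.84 to 32.9 ± 3.76 CPM (log2 fold change -0.76, adjusted p 0.000902). Mbnl1 and Rbfox2 rose with log2 fold changes of 0.48 and 0.27. Each of these 2 calls was lost in 5 of the 6 fits without a library, with adjusted p up to 0.208 for Mbnl1 and 0.178 for Rbfox2, and the list had 2 calls with upper quartile factors or library totals. Rbm47, an RNA-binding factor of epithelia, had a log2 fold change of 0.02.

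St14 (ENSMUSG00000031995.9, chromosome 9, 31089402 to 31131853, minus strand) encodes matriptase, a membrane serine protease of epithelial surfaces. It had the highest log2 fold change of the 10 genes. Its levels were 78.6, 84.6 and 91.0 CPM in WT and 148, 117 and 128 CPM in the knockout, so every knockout library lay above every WT library. Its fitted log2 change was 0.63 ± 0.10 (SE, adjusted p 0.000797), a fold of 1.55. Spint1 (ENSMUSG00000027315.13, chromosome 2, 119237362 to 119249527, plus strand), the gene of a Kunitz-type inhibitor of matriptase, was counted at 63.6, 64.9 and 67.4 CPM in WT and at 84.2, 90.0 and 85.3 CPM in the knockout. It also rose without overlap, with a fitted log2 change of 0.41 ± 0.09 (SE, adjusted p 0.00554), a fold of 1.32. Both genes stayed past the threshold in all 16 alternative settings, with adjusted p up to 0.00979 for St14 and 0.0388 for Spint1. No other member did.

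The ratio of Spint1 to St14 per kb was 1.05, 0.998 and 0.964 in WT and 0.739, 1.002 and 0.869 in the knockout. Knockout replicate A, which had the highest St14 level, was lowest, and knockout replicate B lay within the WT range. The groups overlapped, and the difference did not pass the test (exact two-sided permutation p = 0.30, adjusted 0.30). Of 11 further genes of surface proteolysis, 8 were tested, 1 was higher and 1 lower, a share of 25% beside the 13.3% of all genes. Spint2, a second Kunitz inhibitor gene, rose from 184 ± 17.3 to 238 ± 16.5 CPM (log2 fold change 0.37, adjusted p 0.0142), and lost its call in 2 of the 6 fits without a library, with adjusted p up to 0.0874 without WT replicate B. Met, which encodes the receptor of hepatocyte growth factor, fell from 10.9 ± 1.25 to 6.36 ± 1.69 CPM (log2 fold change -0.78, adjusted p 0.0240), and lost its call in 4 of those fits, with adjusted p up to 0.103. Neither was called without WT replicate A or B. Prss8, the gene of the protease prostasin that acts with matriptase, had 5.78 ± 0.508 CPM in WT against 5.81 ± 0.701 CPM in the knockout (adjusted p 0.987). F2rl1, a protease-activated receptor gene, had 84.6 ± 8.26 and 96.5 ± 6.20 CPM (adjusted p 0.227).

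**Figure D3:**
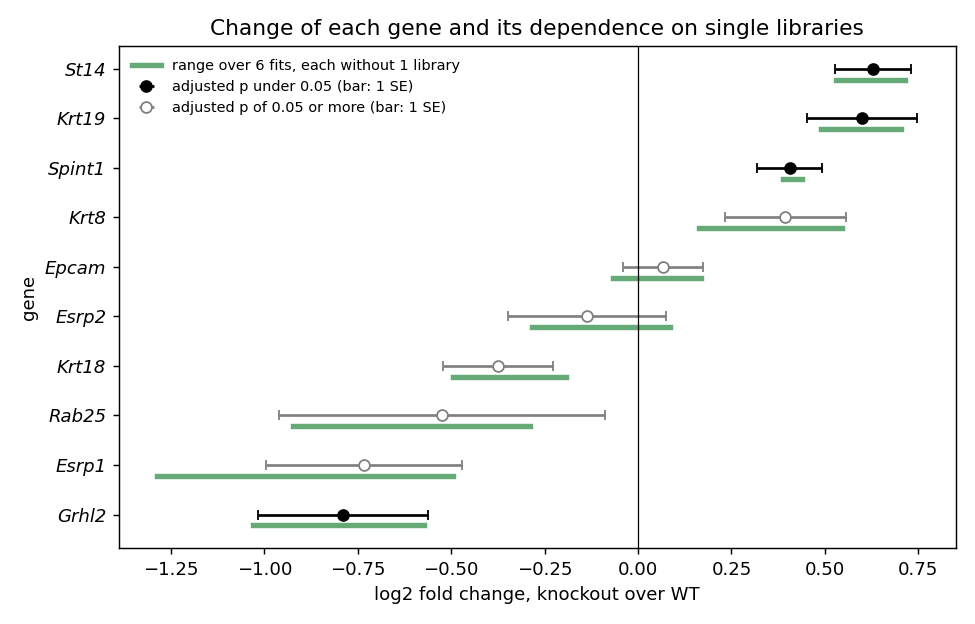
Fitted log2 fold change of each gene, knockout over WT, with 1 standard error, and the range of the value over the 6 fits that each left out a library (lower bar). Filled points passed an adjusted p of 0.05. St14 at 0.63 and Spint1 at 0.41 have narrow ranges, while Esrp1 ranges from -1.29 to -0.50.

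Rab25 (ENSMUSG00000008601.12, chromosome 3, 88542029 to 88548300, minus strand) encodes an epithelial small GTPase of the Rab11 subfamily that returns surface proteins from recycling endosomes. It had the fewest reads of the 10 genes, from 15 to 38 counts in a library. Its levels were 1.35, 1.92 and 1.15 CPM in WT and 1.55, 0.786 and 0.757 CPM in the knockout. Knockout replicate A lay within the WT range and the others below it. Its fitted log2 change was -0.52 ± 0.44 (SE, adjusted p 0.494). It was -0.92 without knockout replicate A (adjusted p 0.236) and -0.29 without WT replicate B (adjusted p 0.808). Without knockout replicate B or C it was -0.35 or -0.34. Of 10 recycling genes around Rab25, all tested, 1 was higher and 2 lower, a share of 30% beside the 13.3% of all genes. Rab11fip5 rose from 29.4 ± 3.43 to 44.0 ± 4.87 CPM (adjusted p 0.00531). Rab11fip1 fell from 71.3 ± 3.26 to 54.5 ± 3.58 CPM (adjusted p 0.0125) and Rab11fip4 fell from 93.7 ± 4.12 to 73.9 ± 10.3 CPM (adjusted p 0.0417). These genes encode effectors that link Rab11 proteins to vesicles. The calls were lost in 2 of the 6 fits without a library for Rab11fip1, with adjusted p up to 0.0791, and in 5 for Rab11fip4, with adjusted p up to 0.196, and Rab11fip5 alone was called without WT replicate C. Rab11a itself had 50.4 ± 5.06 and 58.1 ± 6.81 CPM (adjusted p 0.275).

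Other epithelial genes, such as those of junctions and surface adhesion, were read last. Of 24 such genes, all tested, 1 was higher and 1 lower, a share of 8.33% beside the 13.3% of all genes. Mpzl2, an epithelial adhesion gene, rose from 15.8 ± 1.03 to 27.0 ± 2.13 CPM (log2 fold change 0.78, adjusted p 0.000759). An opposite-strand gene covers 58.0% of its exons. Marveld3, a tight junction gene, fell from 7.73 ± 1.05 to 3.72 ± 0.391 CPM (log2 fold change -1.05, adjusted p 0.00443). Over the list the median was -0.05 on the log2 scale. Without knockout replicate A the list had 6 calls, 1 higher and 5 lower.

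The related lists together, leaving out those of cell type markers, held 104 tested genes besides the 10. Of these 16 were higher and 11 lower, beside 7.60% higher and 5.71% lower over all tested genes. Because the lists were chosen with earlier results of these data known, this comparison is a description and no test. With upper quartile factors or library totals the split was 12 higher and 13 lower. Without single libraries the number of calls ranged from 15 to 35, with 15 without WT replicate A or B and 17 without knockout replicate B. It was 35 without knockout replicate A. Knockout replicate A was the highest of the 3 knockout libraries for 6 of the 10 members, against 37.8% of all tested genes. These were Epcam, Krt19, Grhl2, Esrp1, St14 and Rab25. For Grhl2, Esrp1 and Rab25 that library lay nearest to WT, and for St14 and Krt19 farthest from it.

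**Figure D4:**
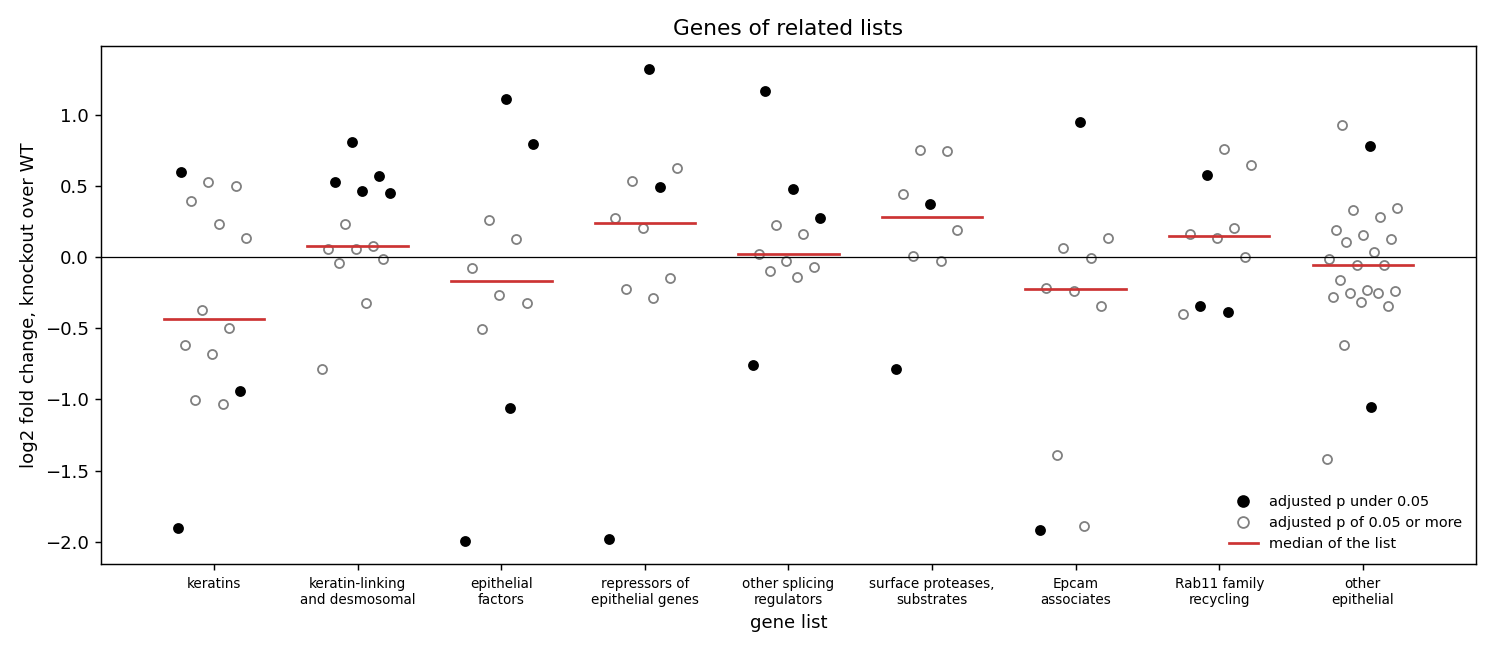
Log2 fold change of each tested gene in 9 related lists, knockout over WT. Filled points passed an adjusted p of 0.05 and red lines are list medians. The keratin-linking and desmosomal list has 5 called genes, all higher, and the other lists have calls in both directions.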

How the data were processed

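RNA-seq libraries of 3 WT and 3 knockout samples were analysed, with groups and replicate letters taken from the titles. The authors deposited raw counts per gene, not normalized. Per the submitters' processing notes, cutadapt 2.10, STAR 2.7.5b, featureCounts 2.0.1 and GRCm38 were used; strand and read-pair settings are not given in the sources used here. Among counts of 1 to 10, 78.1% to 83.1% were even, as when both mates are counted, so the floor was set to 6 counts, which covers counting error only. Symbols were matched for 55141 of 55401 genes, with coordinates from the deposited table, whose gene lengths, in bases, are also the authors'.

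In R 4.3.3, edgeR 4.0.16 (filterByExpr, minimum count 10 and total 15, TMM, glmQLFTest, genotype only) was fitted to all 6 libraries. Genes were called at an adjusted p under 0.05. Ratios used exact permutation tests. The procedure was also run on simulated counts, drawn with the same spread in every library. Such counts do not cover a library that stands apart, and no result above rests on them. Alternatives were other scalings, filters, DESeq2 1.42.0, limma-voom (limma 3.58.1), counts divided by 2, the replicate block and leaving out each library. Members and lists were chosen with earlier results of these data known. In each list, up to 4 called genes with the highest and 4 with the lowest log2 fold changes were named, with others added after their values were seen. Same-letter deviations from the group means correlated at 0.16 (A), -0.15 (B) and 0.40 (C) for 11371 genes averaging 100 counts or more. Libraries of different letters correlated at -0.39 to 0.26. With 3 libraries per group these values cannot settle whether replicate letters pair the libraries.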

Additional observations from a re-analysis of the deposited data

How the results depend on the processing

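Of the 10 members, 4 were called with other scaling factors, with only genes averaging 50 counts or more, with counts divided by 2 and in DESeq2, and 5 in limma-voom. The number was 7 without a count filter. With the replicate letter as a block it was also 7, Krt8, Krt18 and Esrp1 being added. Not every sample correlated best with its own letter, and the samples share only a letter. Leaving out single libraries gave 2 to 5 called members, with 2 without WT replicate C. It gave 1374 to 2784 called genes in all, with 1374 and 1470 without WT replicates A and B. In the related lists it gave 15 to 35, with 15 without WT replicate A or B and 17 without knockout replicate B. The highest of each, 5, 2784 and 35, came without knockout replicate A. Fits with fewer libraries test with fewer samples. The log2 fold change of Epcam ranged from -0.068 (without knockout replicate A) to 0.17, and that of Esrp2 from -0.28 to 0.085 (without WT replicate C), and neither gene passed the test in these fits. Over the same fits the mean log2 Krt18 to Krt8 ratio differed by -0.89 to -0.68, that of Esrp1 to Esrp2 by -1.18 to -0.42 and that of Spint1 to St14 by -0.33 to -0.11. Rab25 had the lowest depth, at 15 to 38 counts in a library. The causes of these differences were not tested.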

Other observations

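The genes whose log2 CPM followed that of Epcam and of Krt8 most closely over the 6 libraries were looked up among 9777 tested genes with a mean of at least 10 CPM. For Epcam these were Dop1b, Arid3a and Zfp688, each with a Pearson r of 0.98, and like Epcam each had its highest level in knockout replicate A. Arid3a, a DNA-binding factor gene, had 39.6, 41.6 and 41.5 CPM in WT and 51.8, 36.8 and 41.3 CPM in the knockout. For Krt8 they were Sar1a, Cd320 and St6galnac3, with r of 0.997, 0.990 and 0.989, each with its highest level in knockout replicate C. Cd320 had 22.96, 23.6 and 26.1 CPM in WT and 26.6, 25.6 and 32.6 CPM in the knockout. None of these 6 genes was called, with adjusted p from 0.293 to 0.935. With 6 libraries that share scaling and so many genes searched, such values describe these libraries only.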
